A study of Mus musculus with 6 samples.

Results

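Lysosomal hydrolases, their activators and the proteins of the lysosomal membrane were examined in starry-sky tumor-associated macrophages (SS-TAMs) and in germinal center macrophages (GCMs). The set holds 35 listed genes: 9 glycosidases, 7 enzymes of glycosaminoglycan breakdown, 5 sphingolipid enzymes and activators, 6 other lumenal proteins and 8 membrane or cholesterol-export proteins. Cathepsins and the proton pump were left out of the list. A gene entered where a probe set of the array was annotated to it alone, and all 35 did so, among 19938 genes measured in this way.

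SS-TAMs were laser-captured by CD68 staining from subcutaneous tumors that the human line BL2, derived from a Burkitt's lymphoma, had formed in female BALB/c SCID mice aged 6 to 12 weeks (3 mice; tumors of 1.44 cm2). GCMs, the macrophages that clear dying B cells from germinal centers, came from female CSF1R-EGFP transgenic BALB/c mice of the same age range given 2 doses of sheep red blood cells (3 mice). From each mouse 1000 cells were captured, their RNA was amplified and hybridized to 1 Affymetrix Mouse Gene 1.0 array, and the comparison asks how macrophages of a lymphoma differ from those of the normal tissue it resembles. The tissue of the GCM samples is labelled as spleen while their source is described as lymph node, and SCID hosts lack mature T and B cells of their own, so that cell state, host strain, tissue and the way cells were picked cannot be told apart between the groups.

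Lysosomes are the acidic compartments in which macrophages digest what they engulf, including apoptotic cells. Glycosidases and sulfatases remove sugars and sulfate groups from glycoproteins, glycolipids and glycosaminoglycans one after another, small activator proteins present lipids to the enzymes, and membrane proteins shield the lysosome's wall, carry ions and export cholesterol and other products. Inherited loss of many of these genes leads to lysosomal storage disease. Most of the soluble enzymes reach the lysosome through a mannose-phosphate tag, and the transcription factor TFEB and its relatives MITF, TFE3 and TFEC bind a short DNA word, TCACGTGA, or its core CACGTG, in the promoters of many lysosomal genes.

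Transcripts of lysosomal genes were broadly more abundant in SS-TAMs than in GCMs. Of the 35 genes, 21 were higher in SS-TAMs (60.0%) and 0 were lower by limma at an adjusted p under 0.05, where 5.16% of all genes were higher and 4.76% lower (1028 and 950 genes, or 721 and 1199 with arrays centred on their medians). At least 2-fold higher were 16 of the 35, against 1.39% of all genes. The median log2 fold change of the 35 was 0.97 (1.96-fold), and that of all genes was 0.04 (1.03-fold). The progranulin gene Grn, the α-galactosidase gene Gla, the β-hexosaminidase subunit gene Hexa and the cholesterol transporter gene Npc1 had the largest differences, between 5.88- and 7.03-fold. In 26 genes every SS-TAM array was above every GCM array, as in 18.5% of all genes, and 5 of these 26 did not pass the test. The log2 fold change was above 0 in 34 of the 35, against 11958 of all 19938 genes. The exception, the tartrate-resistant phosphatase gene Acp5, was not called. Each array held RNA of a captured population, so fewer cells of a type and less RNA per cell cannot be told apart.

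**Figure D1:**
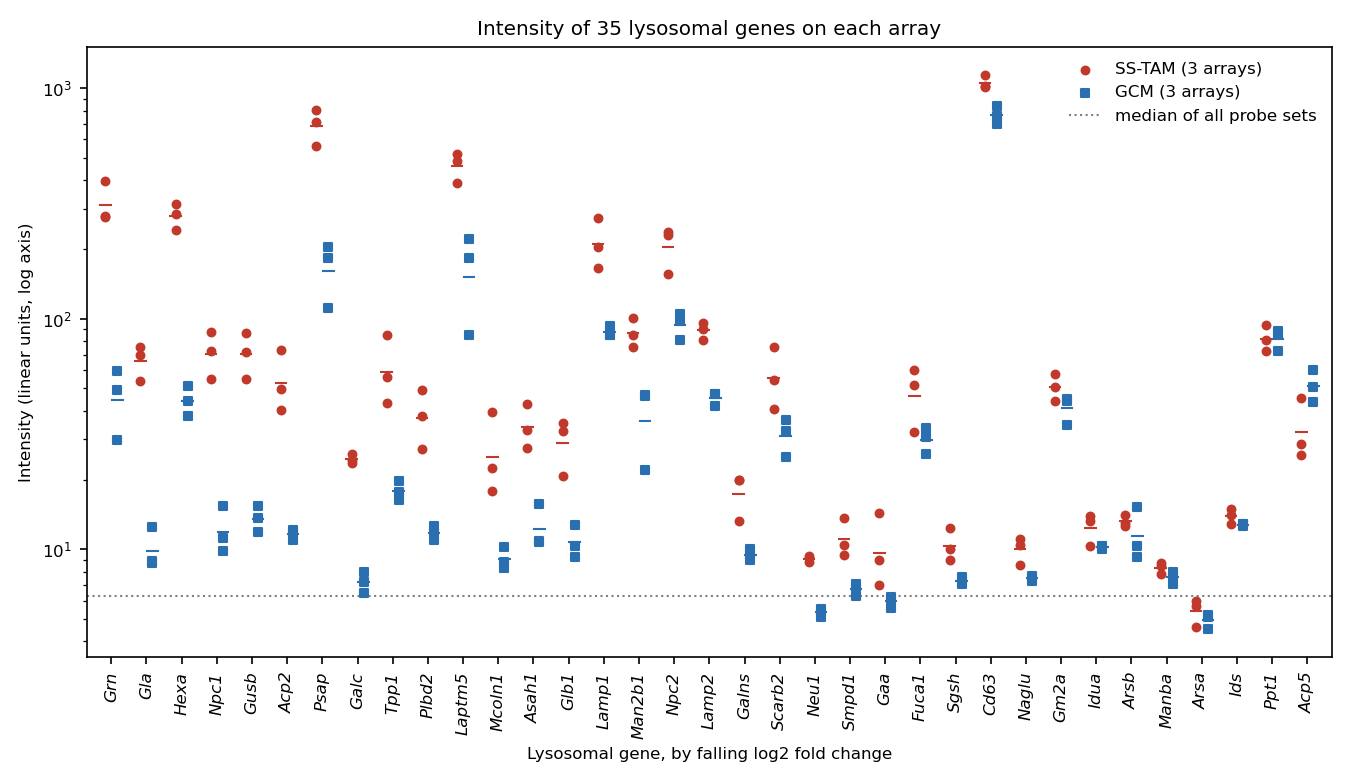
Intensity on each array (log axis, linear units as deposited) of the 35 lysosomal genes, in falling order of log2 fold change; red circles are 3 SS-TAM arrays, blue squares 3 GCM arrays, short bars the geometric means and the dotted line the median of all probe sets (6.3). SS-TAM arrays lie above GCM arrays without overlap in 26 genes, and Ppt1 and Acp5 at the right end overlap between groups.

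The promoters of these genes were read first, as the sequences through which TFEB-type factors are known to act. RefSeq promoter windows (mouse build GRCm38.p6, from 250 bases before to 50 bases after the start) were at hand for 31 of the 35 genes, in 34 windows. Windows were searched as given, which covers both strands because each word reads the same on both, and a match counts once. Every TCACGTGA also holds a CACGTG. The longer word stood in 2 of the 34 windows (5.88%), against 0.974% of 32851 promoters, and CACGTG in 8 of 34 (23.5%), against 7.15%. Among genes with a promoter, 4 of 17 higher in SS-TAMs and 4 of 14 not called held CACGTG. A match is a description of the letters, not of binding.

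The windows of Gla (chrX:134600956-134601255, minus strand) and Mcoln1 (chr8:3500269-3500568, plus strand) are shown because they are those with the longer word, and that of Lamp1 (chr8:13158911-13159210, plus strand) because it holds the most copies of the core, a choice made after the matches were seen. All run 5′ to 3′ with CACGTG in capitals.
Gla: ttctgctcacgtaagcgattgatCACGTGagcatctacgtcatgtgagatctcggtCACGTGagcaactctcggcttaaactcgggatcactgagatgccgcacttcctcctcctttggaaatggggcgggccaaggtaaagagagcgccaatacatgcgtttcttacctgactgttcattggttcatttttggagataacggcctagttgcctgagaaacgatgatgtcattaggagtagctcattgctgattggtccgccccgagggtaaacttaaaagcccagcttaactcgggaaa
Mcoln1: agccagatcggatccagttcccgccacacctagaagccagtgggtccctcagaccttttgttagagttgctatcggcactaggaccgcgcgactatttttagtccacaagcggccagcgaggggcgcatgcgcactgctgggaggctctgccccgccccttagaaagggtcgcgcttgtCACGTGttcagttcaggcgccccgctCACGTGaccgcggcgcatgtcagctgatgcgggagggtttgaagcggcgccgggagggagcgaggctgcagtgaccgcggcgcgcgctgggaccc
Lamp1: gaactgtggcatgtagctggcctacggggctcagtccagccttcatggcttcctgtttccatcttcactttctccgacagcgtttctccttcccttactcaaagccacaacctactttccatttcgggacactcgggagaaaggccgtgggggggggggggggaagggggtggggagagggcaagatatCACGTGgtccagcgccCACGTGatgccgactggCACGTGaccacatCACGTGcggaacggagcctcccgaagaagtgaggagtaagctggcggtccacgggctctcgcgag
In Gla the copies began 227 and 194 bases before the start, both inside TCACGTGA. In Mcoln1 they began 71 and 45 bases before it, and the copy at 45 lay in the longer word. Lamp1 held 4 copies between 61 and 15 bases before the start, none of them in the longer word. Single copies were found in Glb1, Naglu, Gaa, Sgsh and Arsa, of which only Glb1 was higher in SS-TAMs.

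Among the glycosidases, 5 of 9 were higher in SS-TAMs, with a median log2 fold change of 1.26. Gla, whose product removes terminal galactose from globotriaosylceramide, read 75.8, 53.5 and 69.4 on the SS-TAM arrays, against 12.5, 8.7 and 8.9 on the GCM arrays (66.2 ± 11.5 and 10.0 ± 2.14, SD, n = 3 each). The difference was 6.63-fold (log2 fold change 2.73, SE 0.19, limma adjusted p = 0.00152), with no overlap between the groups. Hexa, the α subunit of the enzyme that degrades the ganglioside stored in Tay-Sachs disease, had intensities of 315.1, 242.2 and 285.0 in SS-TAMs and 44.0, 38.0 and 51.3 in GCMs. Its groups stood as far apart (6.33-fold, log2 fold change 2.66, SE 0.14, limma adjusted p = 0.00093).

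Galc, which cleaves galactosylceramide and is lost in Krabbe disease, was even across mice at 24.4, 23.8 and 26.0 in SS-TAMs, against 8.0, 7.2 and 6.5 in GCMs (log2 fold change 1.78, SE 0.09, limma adjusted p = 0.000832). Here the GCM level was close to the median intensity of all probe sets, as a group mean under 9.45 is called from here on, so its fold of 3.43 may understate the difference. Glb1, the acid β-galactosidase, gave 32.6, 20.9 and 35.3 in SS-TAMs and 10.4, 9.3 and 12.8 in GCMs (2.69-fold, log2 fold change 1.43, SE 0.23, limma adjusted p = 0.0177). Neu1, a sialidase, was higher at low intensity, with 8.8, 9.2 and 9.4 in SS-TAMs against 5.4, 5.5 and 5.1 in GCMs (log2 fold change 0.78, SE 0.06, limma adjusted p = 0.00179). All Neu1 values were close to or below the median, and no detection calls were used.

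The α-mannosidase gene Man2b1 was not called, although its groups did not overlap: 84.7, 75.6 and 101.0 in SS-TAMs, against 46.8, 22.0 and 46.2 in GCMs (2.39-fold, log2 fold change 1.26, SE 0.32, limma adjusted p = 0.0649). GCM replicate 2 lay well below its group mates, and the gene was called higher without it (limma adjusted p = 0.0476). Gaa, which degrades glycogen, ranged from 7.0 to 14.4 in SS-TAMs and, below the median, 5.6 to 6.2 in GCMs (log2 fold change 0.70, limma adjusted p = 0.162). The fucosidase gene Fuca1 ranged from 32.3 to 60.0 in SS-TAMs and 25.9 to 33.7 in GCMs, with overlap (limma adjusted p = 0.177). Manba, the β-mannosidase, stayed close to the median in both groups, at 8.33 in SS-TAMs and 7.60 in GCMs on average.

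Of the enzymes that break down glycosaminoglycans, 2 of 7 were higher, and the median log2 fold change was 0.41. Gusb, the β-glucuronidase, was the most changed of them, with 72.1, 55.1 and 86.6 in SS-TAMs, against 15.4, 11.9 and 13.7 in GCMs (71.3 ± 15.8 and 13.7 ± 1.75, SD, n = 3 each). The difference was 5.16-fold (log2 fold change 2.37, SE 0.19, limma adjusted p = 0.00205). Galns, a sulfatase of keratan sulfate and chondroitin sulfate, read 20.0, 13.3 and 20.0 in SS-TAMs and 9.0, 9.5 and 10.0 in GCMs (log2 fold change 0.88, SE 0.17, limma adjusted p = 0.0317).

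The heparan sulfate enzymes Sgsh and Naglu were not called. Sgsh ranged from 9.0 to 12.4 in SS-TAMs and 7.1 to 7.6 in GCMs (limma adjusted p = 0.0592). Naglu ranged from 8.6 to 11.1 in SS-TAMs and 7.3 to 7.7 in GCMs (limma adjusted p = 0.0672). In both genes the groups did not overlap, but the GCM level was close to the median. Idua and Ids, the iduronidase and the iduronate sulfatase, had log2 fold changes of 0.28 and 0.13 with 95% intervals of -0.02 to 0.59 and -0.05 to 0.30. Arsb, which removes sulfate from dermatan sulfate, has a pair of probe sets that differ in sign: the brighter gave a log2 fold change of 0.22 (limma adjusted p = 0.495) and the dimmer -0.18.

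Of the sphingolipid enzymes and activators, 3 of 5 were higher (median log2 fold change 0.72). Psap, the precursor from which all saposins are cut, had intensities of 802.9, 560.9 and 714.4 in SS-TAMs and 183.3, 111.6 and 205.4 in GCMs (693 ± 122 and 167 ± 49.0, SD, n = 3 each). This was a 4.25-fold difference with no overlap (log2 fold change 2.09, SE 0.26, limma adjusted p = 0.00831). Asah1, the acid ceramidase, read 27.6, 32.8 and 42.8 in SS-TAMs, against 10.9, 15.7 and 10.8 in GCMs (2.76-fold, log2 fold change 1.46, SE 0.22, limma adjusted p = 0.0139). Smpd1, the acid sphingomyelinase, read 10.5, 9.5 and 13.7 in SS-TAMs and 7.1, 6.9 and 6.3, close to the median, in GCMs (log2 fold change 0.72, SE 0.14, limma adjusted p = 0.0345).

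Gm2a, the activator that serves β-hexosaminidase, did not pass. It read 57.8, 44.1 and 50.6 in SS-TAMs, against 34.8, 44.1 and 44.9 in GCMs (log2 fold change 0.30, 95% interval -0.05 to 0.65, limma adjusted p = 0.247). Its arrays overlapped between the groups, unlike those of Hexa, and the difference between these genes was not tested. Arsa, the sulfatase of sulfatide, was below the median in both groups, at 5.43 in SS-TAMs and 4.93 in GCMs.

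The other lumenal proteins held both the largest increase of the set and its only negative change. Of 6 genes, 4 were higher, with a median log2 fold change of 1.69. Grn, whose protein is processed to granulins in the lysosome, read 396.9, 276.7 and 278.2 in SS-TAMs, against 49.2, 29.9 and 59.7 in GCMs (317 ± 69.0 and 46.3 ± 15.1, SD, n = 3 each). It differed 7.03-fold (log2 fold change 2.81, SE 0.29, limma adjusted p = 0.00447). Acp2, a lysosomal acid phosphatase, gave 49.4, 40.3 and 73.6 in SS-TAMs and 11.9, 11.0 and 12.1 in GCMs (4.52-fold, log2 fold change 2.18, SE 0.22, limma adjusted p = 0.00423).

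Tpp1, a peptidase that trims tripeptides from proteins, read 84.9, 43.2 and 55.8 in SS-TAMs, against 16.4, 17.7 and 19.8 in GCMs (3.29-fold, log2 fold change 1.72, SE 0.25, limma adjusted p = 0.013). Plbd2, a phospholipase B-like protein, read 49.0, 27.4 and 37.8 in SS-TAMs, against 12.6, 11.0 and 11.8 in GCMs (3.14-fold, log2 fold change 1.65, SE 0.21, limma adjusted p = 0.00886). In both, SS-TAM replicate 1 was the highest array and replicate 2 the lowest of the SS-TAMs.

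Ppt1, which removes palmitate from proteins and was among the brighter members, was level: 81.0, 72.5 and 94.5 in SS-TAMs and 86.0, 72.4 and 88.3 in GCMs. Its fold was 1.003 with a 95% interval of 0.81 to 1.24 (log2 fold change 0.0045, SE 0.13, limma adjusted p = 0.993). Acp5, the tartrate-resistant acid phosphatase of osteoclasts and some macrophages, read 45.3, 28.8 and 25.7 in SS-TAMs, against 50.4, 43.6 and 60.3 in GCMs. Only SS-TAM replicate 1 reached into the GCM range, and the log2 fold change of -0.66 was not called (SE 0.24, limma adjusted p = 0.154). Apart from the scalings to macrophage markers given below, Acp5 passed the test only when that array was left out.

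**Figure D2:**
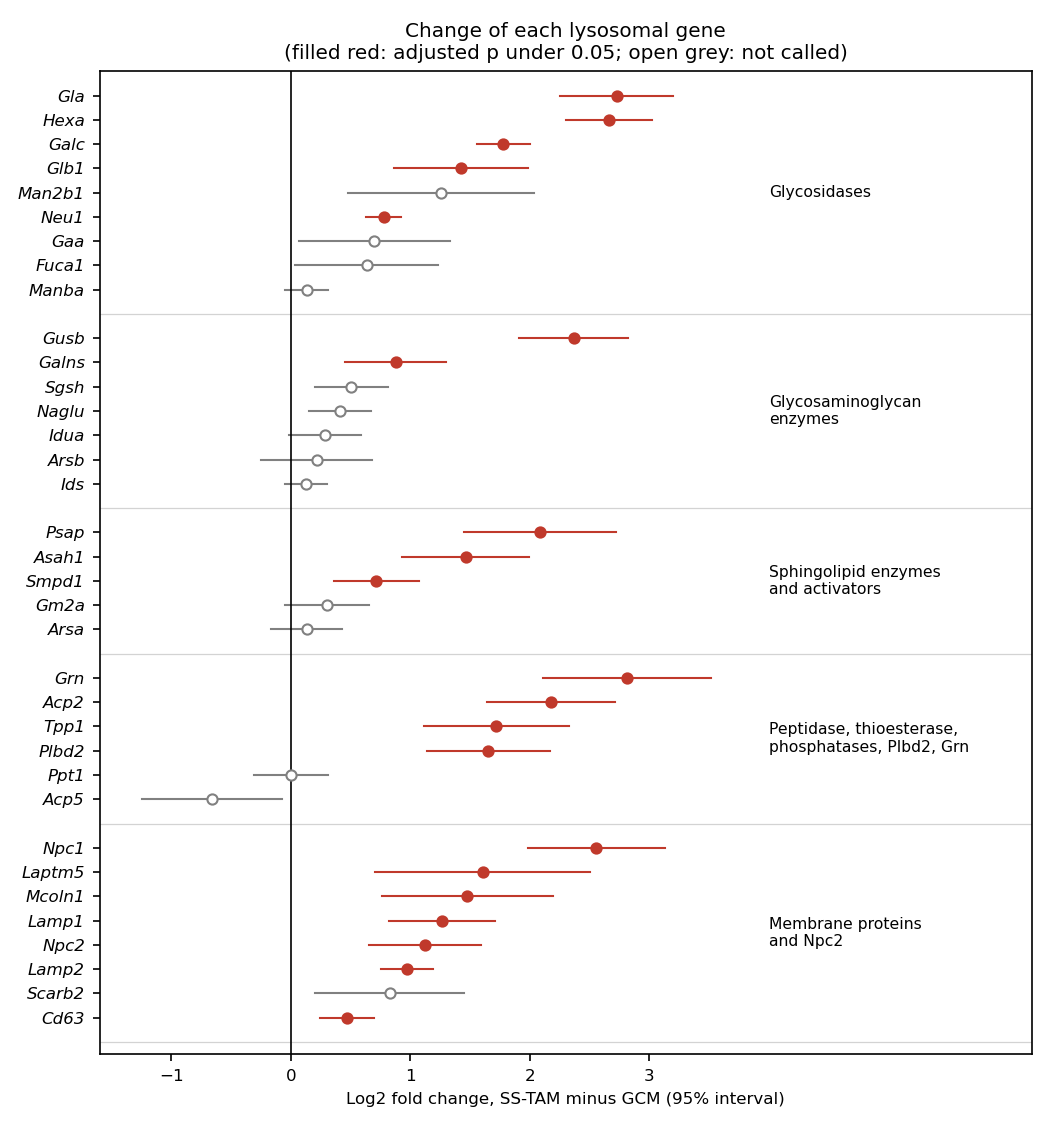
Log2 fold change (SS-TAM minus GCM, points) of each lysosomal gene with its 95% interval (lines), grouped by role; filled red points passed an adjusted p under 0.05 by limma and open grey points did not. Increases reach 2.81 in Grn and span all groups, most of the glycosaminoglycan enzymes lie under 1, and Acp5 alone is below 0.

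Of the membrane proteins and cholesterol carriers, 7 of 8 were higher, with no overlap between groups in any of the 8 (median log2 fold change 1.20). Npc1, which moves cholesterol out across the lysosomal membrane, read 87.6, 54.6 and 72.3 in SS-TAMs, against 15.5, 9.8 and 11.2 in GCMs (5.88-fold, log2 fold change 2.56, SE 0.23, limma adjusted p = 0.0033). Its soluble partner Npc2, which hands cholesterol to it, read 231.8, 156.1 and 238.5 in SS-TAMs, against 81.2, 97.9 and 104.8 in GCMs (2.18-fold, log2 fold change 1.12, SE 0.19, limma adjusted p = 0.0215). Both genes were thus higher, with the smaller SE and the smaller change in Npc2.

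Lamp1 and Lamp2 encode the main glycoproteins of the lysosome's wall. Lamp1 read 273.6, 166.9 and 205.7 in SS-TAMs, against 84.9, 85.0 and 93.3 in GCMs (2.41-fold, log2 fold change 1.27, SE 0.18, limma adjusted p = 0.0125). Lamp2 read 90.4, 81.1 and 96.3 in SS-TAMs, against 42.0, 47.3 and 47.1 in GCMs, and with little spread in either group its 1.96-fold difference had the smaller p (log2 fold change 0.97, SE 0.09, limma adjusted p = 0.00322). Laptm5, a lysosomal protein of blood cells, read 519.1, 388.9 and 483.1 in SS-TAMs, against 221.0, 85.3 and 184.3 in GCMs (3.04-fold, log2 fold change 1.60, SE 0.36, limma adjusted p = 0.0486). Its GCM arrays were spread widely, and the call lay just under the threshold.

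Mcoln1, the calcium-releasing channel of the lysosome, read 39.6, 18.0 and 22.5 in SS-TAMs, against 10.2, 8.3 and 8.8, close to the median, in GCMs (2.78-fold, log2 fold change 1.48, SE 0.29, limma adjusted p = 0.0328). Cd63, a tetraspanin of late endosomes and exosomes, read 1017.9, 1015.8 and 1144.7 in SS-TAMs and 759.4, 697.2 and 838.3 in GCMs, the smallest of the 21 called differences (1.39-fold, log2 fold change 0.47, SE 0.09, limma adjusted p = 0.0309). Scarb2, the receptor that carries glucocerebrosidase to lysosomes, read 75.7, 40.7 and 54.4 in SS-TAMs, against 25.2, 32.6 and 36.6 in GCMs, and did not pass (log2 fold change 0.83, SE 0.25, limma adjusted p = 0.109).

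With 1 array left out in turn, which leaves 2 in a group, 10 of the 21 genes were called in all 6 fits: Grn, Gla, Hexa, Npc1, Gusb, Acp2, Psap, Galc, Lamp2 and Neu1. The number higher was 16, 20 and 16 without SS-TAM replicates 1, 2 and 3, and 11, 13 and 11 without GCM replicates 1, 2 and 3. Calls over all genes fell as well, to 349, 271 and 304 higher without GCM replicates 1, 2 and 3, against 1028 with all arrays. Over the 6 fits the log2 fold change of Lamp1 lay between 1.08 and 1.44 and that of Cd63 between 0.41 and 0.54. The range was wider in Laptm5, from 1.19 to 1.88, and in Mcoln1, from 1.15 to 1.72. Cd63 lost its call whichever array was left out (limma adjusted p up to 0.11), Laptm5 whenever it was another than GCM replicate 2 (up to 0.132), and Lamp1 whenever it was a GCM array (up to 0.0675). Glb1, Galns and Npc2 lost theirs on leaving out each GCM array and SS-TAM replicates 1 and 3 (up to 0.0831 in Glb1 and 0.0875 in Npc2). Tpp1 and Mcoln1 did so for each GCM array and SS-TAM replicate 3 (up to 0.0678 in Tpp1 and 0.131 in Mcoln1), and Smpd1 for each GCM array and SS-TAM replicate 1. Asah1 fell short without GCM replicates 1 or 3 or SS-TAM replicate 2 (up to 0.0643), and Plbd2 without GCM replicate 2 (0.0522).

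Within the SS-TAM group the lysosomal genes moved together from array to array. SS-TAM replicate 2 was the lowest of the SS-TAM arrays in 27 of 35 genes and the highest in 0, while it was the lowest in 38.1% of all genes. Replicate 1 was the highest in 21 of the 35 and replicate 3 in 15, ties counted in both. The summed intensity of the 35 genes was 4729, 3665 and 4467 on SS-TAM arrays 1, 2 and 3. On GCM arrays 1, 2 and 3 it was 1956, 1638 and 2092. The mean intensity of all probe sets was 18.5, 17.8 and 19.5 on SS-TAM arrays 1, 2 and 3, and its part was not tested. GCM replicate 2 was the lowest GCM array in 18 of 35 genes (51.4%), and in 54.1% of all genes. The coefficient of variation between mice ranged from 3.35% to 42.7% in SS-TAMs (median 17.7%) and from 1.35% to 42.9% in GCMs (median 10.45%).

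**Figure D3:**
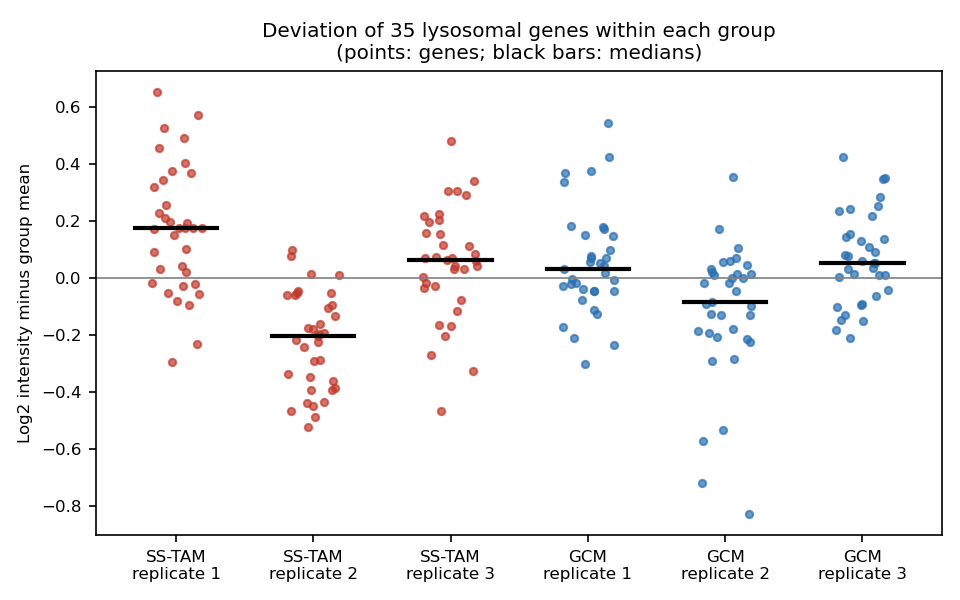
Log2 intensity of each of the 35 lysosomal genes on each array minus the mean of its own group (points; black bars are medians), SS-TAM arrays on the left and GCM arrays on the right. SS-TAM replicate 2 lies low, with a median deviation of -0.20, against 0.17 and 0.06 on SS-TAM replicates 1 and 3.

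Other lysosomal genes outside the set of 35 were also higher in part. Of 38 listed, 31 were measured, and 10 of these were higher (32.3%), where 5.16% of all genes were. Among the 31, 0 were lower and 7 were at least 2-fold higher (median log2 fold change 0.55). Lipa, the acid lipase that frees cholesterol from its esters, averaged 345.6 ± 59.7 in SS-TAMs and 52.3 ± 16.8 in GCMs (log2 fold change 2.76, SE 0.26, limma adjusted p = 0.00343). The carboxypeptidase gene Scpep1 (log2 fold change 1.97), the phospholipase gene Pla2g15 (1.69) and the mannosidase gene Man2b2 (1.17) were higher too, among 5 of 14 hydrolases. Of the membrane proteins 5 of 17 were higher, led by Glmp at 93.7 in SS-TAMs and 25.6 in GCMs (log2 fold change 1.85, limma adjusted p = 0.00706) and the transporter gene Atp13a2 (1.30). Ostm1, a partner of a lysosomal chloride transporter, and the nucleoside transporter gene Slc29a3 followed, at 0.97 and 0.87 on the log2 scale.

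Of 11 measured genes that tag and sort the enzymes, 1 was higher (9.09%) and 0 lower, where 5.16% of all genes were higher. Igf2r, the large mannose-phosphate receptor, averaged 37.4 in SS-TAMs and 12.2 in GCMs (log2 fold change 1.59, SE 0.22, limma adjusted p = 0.0123). Of the TFEB family, 0 of 4 passed. Tfec read 93.2, 6.4 and 6.4 in SS-TAMs and 6.1, 6.4 and 7.4 in GCMs, so that SS-TAM replicate 1 alone was above the rest (log2 fold change 1.24, limma adjusted p = 0.49, and -0.0467 without that array). Mitf averaged 7.10 in SS-TAMs and 7.30 in GCMs (log2 fold change -0.08, limma adjusted p = 0.833). The levels of Mitf, Tfeb and Tfe3 were close to the median in both groups, and that of Tfec in GCMs, where a difference is hard to read.

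Markers of other cells moved with the groups. The core macrophage list, which shares no gene with the 35, had 14 of 22 measured genes higher and 0 lower (median log2 fold change 1.30), with summed intensities of 3014 to 3916 in SS-TAMs and 1274 to 1490 in GCMs. It includes lysozyme (Lyz2, not called) and Cd68, a lysosomal membrane protein by which the SS-TAMs were picked, at 582 in SS-TAMs and 72.4 in GCMs, and the adhesion receptor gene Adgre1, at 86.1 in SS-TAMs and 5.03, below the median, in GCMs. Csf1r, whose promoter drives the reporter of the GCM hosts, averaged 61.6 in SS-TAMs and 28.1 in GCMs. T cell markers were lower in 9 of 15 and higher in 0, with sums of 193.5 to 233.7 in SS-TAMs against 1210 to 1612 in GCMs, and Cd3g averaged 6.33 in SS-TAMs and 355 in GCMs.

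B cell markers summed to 145 to 157 in SS-TAMs, against 640.2, 225.7 and 238.0 in GCM replicates 1, 2 and 3 (2 of 15 lower), so that GCM replicate 1 stood apart. Dendritic cell markers summed to 91.5 to 114.3 in SS-TAMs and 157.4 to 239.8 in GCMs (4 of 10 lower). Of the fibroblast and pericyte markers 5 of 16 were higher and 0 lower. Their sums were 1409, 769.6 and 888.9 in SS-TAM replicates 1, 2 and 3, against 444.9 to 573.4 in GCMs. The gap in sums came from Sparc, which averaged 598 in SS-TAMs and 108 in GCMs, and without it the sums overlapped, at 329.7 to 578.4 in SS-TAMs and 370.2 to 430.7 in GCMs. The differences were not confined to Sparc, as the median log2 fold change of the list was 0.46 with it and 0.44 without. In 9 of the 16 every SS-TAM array was above every GCM array (18.5% of all genes), and in 1 every one was below. Markers of plasma cells (6 measured), of follicular dendritic cells and stroma (8), of endothelium (9), neutrophils (10) and erythroid cells (4) gave 2 genes higher and 4 lower in all. The plasma cell sums were 52.3 to 55.8 in SS-TAMs, against 230.6, 102.6 and 81.3 in GCM replicates 1, 2 and 3. Without Jchain these sums overlapped, at 42.8 to 48.9 in SS-TAMs and 42.0 to 58.7 in GCMs (median log2 fold change 0.22). Follicular dendritic cell and stromal markers had a median log2 fold change of -1.53, with Clu (-3.77), Ccl19 (-2.86) and Mfge8 (-2.15) lower and Vcam1 (1.71) higher. Their sums overlapped between groups only with Vcam1, and without it were 65.7 to 77.6 in SS-TAMs and 226.4 to 484.2 in GCMs. Lower levels of mouse lymphocyte and follicular dendritic cell transcripts thus accompanied the higher lysosomal transcripts in SS-TAMs, and their part in the result was not tested. The tumor cells around SS-TAMs were human and the arrays were made for mouse genes. The B cell signals therefore do not compare the B cell content of the captures.

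**Figure D4:**
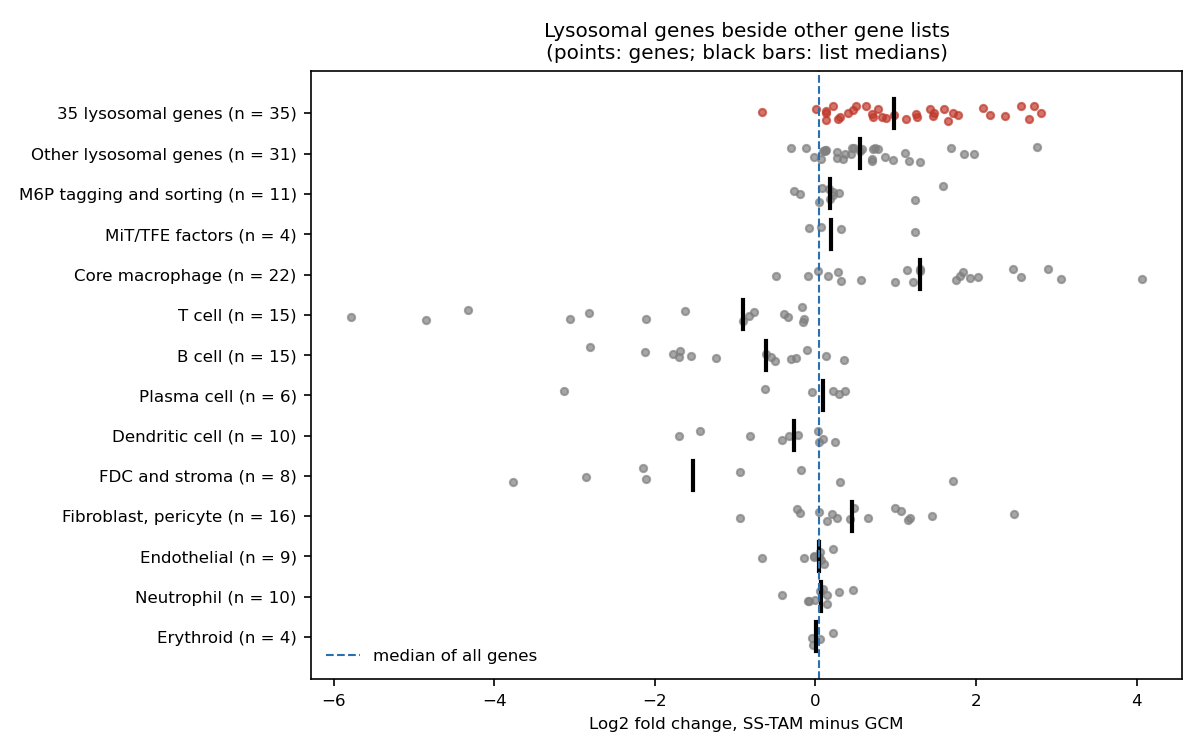
Log2 fold change, SS-TAM over GCM, for each gene in the set of 35 (red) and in the other lysosomal, sorting, transcription factor and marker lists (grey); black bars are list medians and the dashed line the median of all genes. The 35 lysosomal genes (median 0.97) and the core macrophage markers (1.30) lie to the right, T cell, B cell and follicular dendritic cell lists to the left.

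Since macrophage markers as a whole were higher in SS-TAMs, the lysosomal genes were also read relative to them, by subtracting each array's mean log2 intensity of the core macrophage list. The mean of the list differed by 1.41 between groups, so that a gene of equal intensity in both reads -1.41 on this scale, and the median of all genes moved to -1.37 (117 genes higher and 19623 lower). Calls on this scale take the mean of the list as exact, although its own genes changed by -0.50 (Cx3cr1) to 4.07 (Adgre1) as deposited. They place a gene above or below that mean only. On this scale 7 of the 35 genes were higher in SS-TAMs, namely Grn (log2 fold change 1.40), Gla (1.31), Hexa (1.25), Npc1 (1.14), Gusb (0.95), Acp2 (0.76) and Psap (0.67). The median of the 35 was -0.44, which is 0.97 minus that same shift, and 18 genes were lower, among them Lamp2 at -0.44 and Cd63 at -0.94. These 18 include Neu1, Manba and Arsa, whose levels lay near or under the median intensity in both groups. Another 10 genes did not pass in either direction, including Glb1 at 0.01, Asah1 at 0.05, Mcoln1 at 0.06 and Lamp1 at -0.15. Leaving Cd68 and Csf1r out of the list, a variant added after the data were seen, gave 9 higher, the same 7 with Galc and Tpp1.

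**Figure D5:**
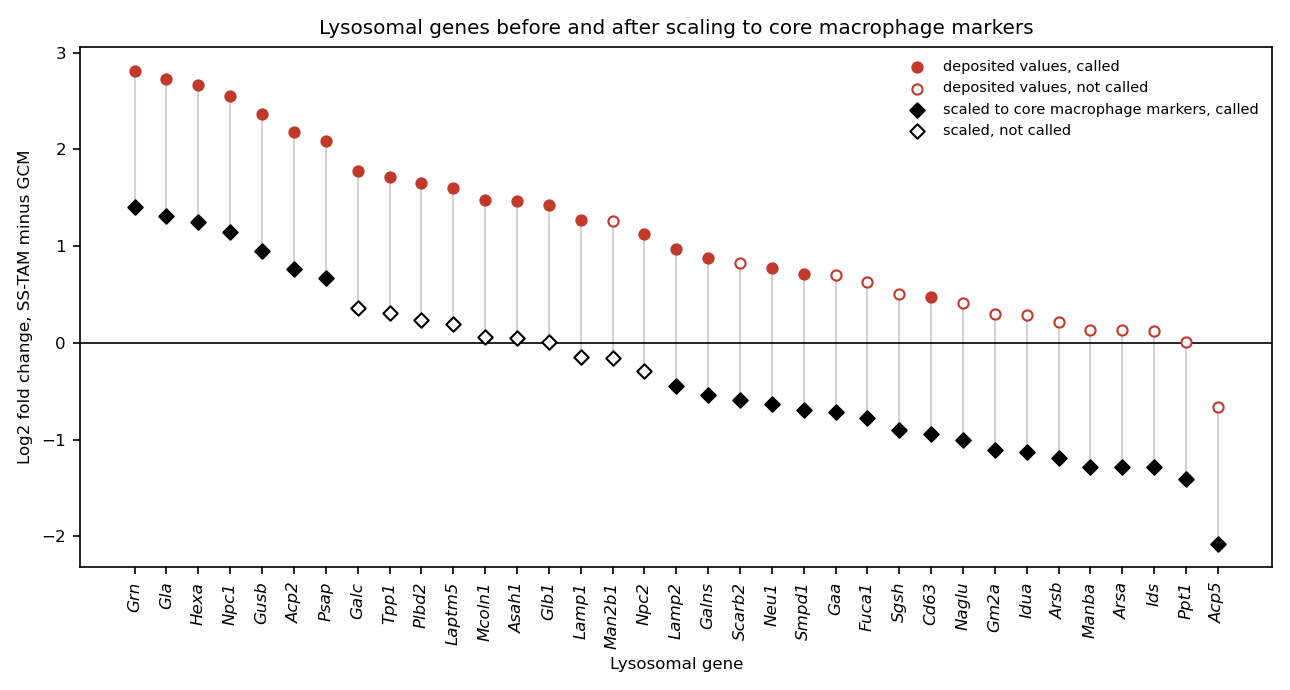
Log2 fold change, SS-TAM over GCM, for the 35 lysosomal genes as deposited (red circles) and relative to core macrophage markers (black diamonds); filled symbols passed an adjusted p under 0.05 by limma and open symbols did not. After scaling, 7 genes from Grn to Psap stay above 0 as called, the next 10 from Galc to Npc2 are not called, and the 18 from Lamp2 on are called below 0.

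The mean log2 intensity of the 35 genes minus that of the core list was -0.61, -0.63 and -0.62 on SS-TAM arrays 1, 2 and 3, and -0.31, -0.32 and -0.38 on GCM arrays 1, 2 and 3. Replicates of a group were thus nearly level on this measure, and the low values of SS-TAM replicate 2 were shared by both lists. As levels of different probe sets are not comparable, only the difference between the groups can be read from it. Relative to the core list's mean, the 35 genes together were lower in SS-TAMs on all 3 arrays. Taken as deposited they were higher on all 3. The largest changes within the core list were those of Adgre1 (log2 fold change 4.07) and Cd68 (3.06). How far the relative difference rests on these genes was not tested.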

How the data were processed

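Per the labels, RNA of captured macrophages was amplified and hybridized to Affymetrix Mouse Gene 1.0 arrays. The authors deposited linear intensity values, rounded to 1 decimal, for 28944 probe sets (2.4 to 2543.6). The submitters' processing notes name RMA and limma. Versions: not given in the sources used here.

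Here log2 of the intensities was taken. Probe sets annotated to 1 gene (21789) were kept, with the brightest over all arrays standing for a gene, and genes were named through the platform annotation and RefSeq. SS-TAM and GCM arrays (3 each, 1 mouse per array) were compared by linear models with moderated variances (limma 3.58.1 under R 4.3.3, functions lmFit and eBayes, two-sided tests), with Benjamini-Hochberg adjustment over 19938 genes, after a test on simulated data. Each log2 fold change is the SS-TAM mean of log2 values less the GCM mean, a fold is its antilog, and means ± SD refer to intensities. A group mean under 9.45 (1.5 times the median intensity) counts as close to or below the median. Array medians were 6.1 to 6.5, but mean intensities were 17.8 to 19.5 in SS-TAMs and 27.1 to 28.0 in GCMs, so the deposited distributions differed between the groups.

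Members and gene lists were chosen with earlier results of these data known. Values per array are printed for genes called with at least a 2-fold change and for uncalled genes with a mean intensity of 50 or more. Of each other list, at most 4 called genes with the largest change were named. Alternatives were other normalizations, filters, variance models and scalings, the replicate block and leaving out each array.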

Additional observations from a re-analysis of the deposited data

How the results depend on the processing

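Of the 35 genes, 21 were called higher, and 16 to 23 under the other tests and normalizations, a 2-fold minimum and a filter on dim genes. With an adjusted p under 0.01 the count was 11 (6 of the other lysosomal genes). Leaving out 1 array gave 11 to 20 of the 35 genes higher and 0 to 1 lower, with the lowest counts without GCM replicates 1 and 3, and 11 of 21 calls were lost in at least 1 of these fits. Over all genes, 271, 304 and 349 were higher without GCM replicates 2, 3 and 1, against 1028 with all arrays, and 404, 439 and 507 were lower, against 950. Fitting the replicate number as a block gave 20 of the 35 higher and 0 lower, and 610 higher over all genes. Man2b1 gained its call (adjusted p = 0.0477), and Galns (0.0571) and Smpd1 (0.0874) lost theirs. Same-numbered arrays of different mice correlated at 0.09, 0.08 and 0.02 in their deviations, and arrays of unlike number at -0.08 to 0.01. Whether same-numbered arrays share more than a number was not tested. The median log2 fold change of the 35 was 1.35 with genes under a mean intensity of 10 left out, which removes 7 of them, and 1.32 after quantile normalization, where the cause was not tested.

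Scaling to core macrophage markers, with and then without Cd68 and Csf1r (added after seeing the data), gave 7 and 9 of the 35 higher, 18 and 18 lower, a median of -0.44 and -0.37, and, of the other lysosomal genes, 3 and 3 higher and 24 and 24 lower. By construction these scalings subtract one shift from all genes. Over all genes they gave 117 and 123 higher and 19623 and 19565 lower. In the same order, the log2 fold change turned negative in Arsa (-1.28, -1.21), Arsb (-1.20, -1.13), Atp13a2 (-0.11, -0.0415), Cd63 (-0.94, -0.87), Fuca1 (-0.78, -0.71), Gaa (-0.71, -0.65), Galns (-0.53, -0.47), Gm2a (-1.11, -1.04), Ids (-1.29, -1.22), Idua (-1.13, -1.06), Lamp1 (-0.15, -0.0777), Lamp2 (-0.44, -0.37), Man2b1 (-0.16, -0.0901), Man2b2 (-0.25, -0.18), Manba (-1.28, -1.21), Naglu (-1.003, -0.94), Neu1 (-0.64, -0.57), Npc2 (-0.29, -0.22), Ostm1 (-0.45, -0.38), Ppt1 (-1.41, -1.34), Scarb2 (-0.59, -0.52), Sgsh (-0.91, -0.84), Slc29a3 (-0.54, -0.48), Smpd1 (-0.70, -0.63) and Tfec (-0.17, -0.10).

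Ppt1, near 0, was -0.0619 with arrays centred on their medians and -0.0963 to 0.0949 with 1 array left out. Mitf was 0.0099 on the mean of its probe sets and -0.25 to 0.15 with 1 array left out. Tfec was -0.0467 without SS-TAM replicate 1, and up to 1.89 with another array left out. Offset, array weights and the variance trend changed at most 3 calls each among the 35. Arrays this few limit precision, and values near the median intensity limit the folds of 9 genes on the GCM side.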
